A study of Homo sapiens with 9 samples.

Results

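The respiratory chain and the ATP synthase are the protein machines of the inner mitochondrial membrane that turn the energy of nutrients into ATP, and most of their subunits are encoded by nuclear genes. The nuclear-encoded subunit genes were taken as the protein-coding genes whose symbols begin with an NDUF subunit prefix (NDUFA, NDUFB, NDUFC, NDUFS, NDUFV or NDUFAB) and a number, are SDHA to SDHD, or begin with UQCR, with COX4 to COX8, or with ATP5. The rule gave 91 genes of 58735 in the deposited tables, with 38 in complex I, 4 in complex II, 9 in complex III, 19 in complex IV and 21 in complex V, the ATP synthase. NDUFA4 and its paralogue NDUFA4L2 were counted with complex IV, where the NDUFA4 protein is now placed. The rule also takes in ATP5S, now named DMAC2L, which is not a subunit, and ATP5IF1, an inhibitor of the ATP synthase. It misses CYC1, cytochrome c1, a nuclear-encoded subunit of complex III, which is given with the other genes of the pathway. The set includes 3 readthrough or near-copy entries, ATP5MF-PTCD1, ATP5MGL and NDUFC2-KCTD14, which had 3, 1 and 0 reads over all 9 libraries.

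Electrons from NADH enter at complex I and those from succinate at complex II. They pass through complex III to complex IV, which reduces oxygen, while complexes I, III and IV pump protons and complex V uses the proton gradient to make ATP. Complexes I, III, IV and V also hold subunits encoded by mitochondrial DNA, so their assembly needs both genomes, whereas complex II is wholly nuclear. In tumour cells respiration is retained to differing degrees beside glycolysis.

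The libraries came from PaTu 8988t, an established human pancreatic tumour cell line, exposed to extracellular matrix of 1 of 3 kinds. R213A libraries came from cells on a matrix labelled as made with overexpressed CPXM2 carrying the R213A mutation, WT libraries from cells on a matrix with overexpressed wild-type CPXM2, and Control libraries from cells on a control matrix, with 3 libraries per group. All cells were grown in DMEM with fetal bovine serum and penicillin/streptomycin, and the study asked how collagen aligned by CPXM2, a secreted carboxypeptidase-like protein, affects gene expression and signalling. No source used here names the cells that made the matrix, the duration of exposure or whether replicate libraries came from separate cultures. A p-value therefore speaks only of how far these libraries scatter, and that scatter may be technical.

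The libraries held 15951927 to 18312806 recovered reads. The values are FPKM, reads per kilobase of gene scaled to the depth of the library, and were deposited as 2 tables. A 4-library table holds R213A 1, R213A 3, WT 1 and Control 1, and a 5-library table holds R213A 2, WT 2, WT 3, Control 2 and Control 3. What separates the tables is not given, so differences between groups were formed within each table. The 4-library table holds 2 of the 3 R213A libraries but only 1 of each other group, so a plain mean over a group mixes the matrix with the table. R213A 1 and Control 2 stand apart in the authors' scaling, at 0.850 and 0.902 of their read totals, against 1.01 to 1.09 in the other 7 libraries. Of 8 epithelial markers KRT8 and KRT18 were high (104 to 300 and 211 to 647 FPKM), EPCAM lay between 1.84 and 6.57 FPKM, MUC1 between 0.528 and 2.12 FPKM, and CDH1, KRT7, KRT17 and KRT19 were at or near 0. All 10 fibroblast, 5 immune, 4 endothelial and 5 muscle markers averaged less than 1 FPKM.

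The subunit genes took a larger share of the reads in the 4-library table than in the other, and the largest in R213A 1. They accounted for 1.80% of the reads in R213A 1, 1.33% in R213A 3, 1.17% in WT 1 and 1.11% in Control 1. In the 5-library table the shares were 0.587% in R213A 2, 0.587% and 0.626% in WT 2 and WT 3, and 0.584% and 0.581% in Control 2 and Control 3. All 5 of these shares lay below those of all 4 libraries of the other table, and R213A 2 was close to its WT and Control partners. In these bulk samples, a change in the RNA per cell cannot be told apart from a change in the mix of cells.

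**Figure D1:**
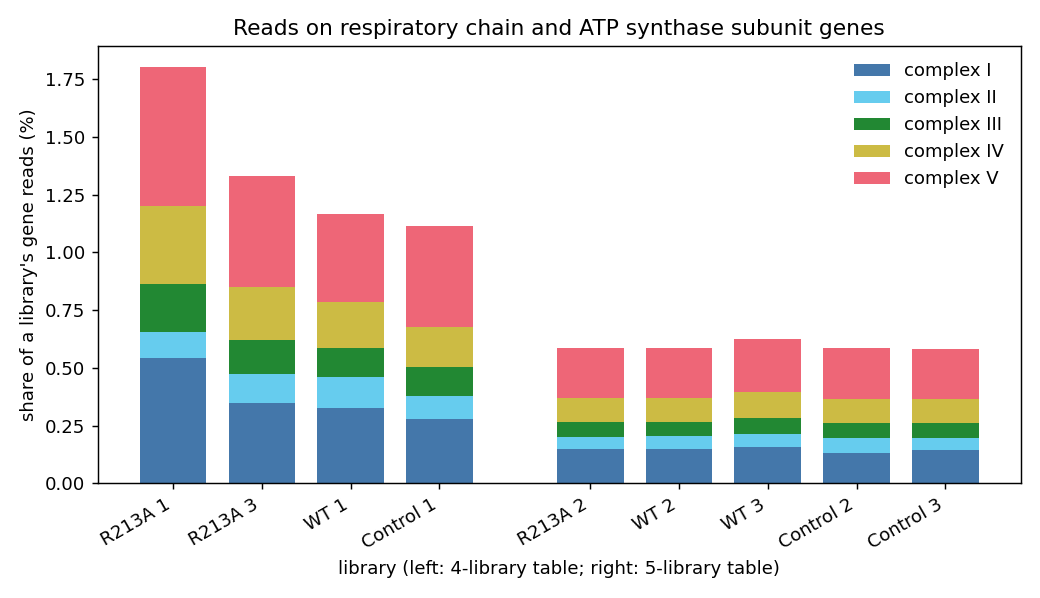
Stacked bars give the percent of each library's gene reads that fell on the subunit genes, split by complex, with the 4-library table on the left and the 5-library table on the right. R213A 1 reaches 1.80% and Control 1 1.11%, while the 5 libraries on the right lie between 0.581% and 0.626%.

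Each complex followed this order of tables. Complex I genes took 0.541% of the reads in R213A 1, 0.349% in R213A 3, 0.328% in WT 1 and 0.277% in Control 1, against 0.133% to 0.160% in the 5-library table. Complex IV genes took 0.338% in R213A 1, 0.230% in R213A 3, 0.203% in WT 1 and 0.172% in Control 1, against 0.102% to 0.112% in the other table. Complex II was the flattest within the 4-library table, with 0.115% in R213A 1, 0.126% in R213A 3, 0.131% in WT 1 and 0.102% in Control 1.

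Of the 91 members, 78 had a mean of at least 1 FPKM over the 9 libraries and were tested, namely 34 of complex I, 4 of complex II, 9 of complex III, 12 of complex IV and 19 of complex V. Their mean levels ran from 1.499 FPKM for NDUFA9, an accessory subunit of complex I named here only as the lowest, to 421 FPKM for ATP5F1B, the catalytic beta subunit of the ATP synthase. The 13 others were COX4I2, COX6A2, COX6B2, COX7A1, COX7B2, COX8C, NDUFA4L2, NDUFA7, NDUFA13, NDUFV2 and the 3 readthrough or near-copy entries.

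All 4 libraries of the 4-library table lay above all 5 libraries of the other table in 66 of the 78 tested members, against 23.7% of all 11193 genes tested. Between Control libraries alone, Control 1 was above the mean of Control 2 and Control 3 in 76 of 78 members, by a median of 0.70 on the log2(FPKM + 1) scale. These 3 libraries carry the same matrix label, so the gap is not one between labelled kinds of matrix. Within the 5-library table, 70 of 78 members varied by less than 1.5-fold across all 5 libraries, against 64.9% of all genes tested.

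For R213A against Control, the subunit genes in the 4-library table were higher in R213A than in Control, broadly and across complexes, whereas in the 5-library table the difference was near 0. R213A 1 was the highest of the 4 libraries in 72 of 78 members, against 33.0% of all genes tested. Both R213A libraries lay above Control 1 in 72 members, against 39.7% of all genes, and above both WT 1 and Control 1 in 60 members, against 16.5% of all genes. The median ratio to Control 1 was 2.16 for R213A 1 and 1.28 for R213A 3. R213A 1 exceeded Control 1 by at least 2-fold on the log2(FPKM + 1) scale in 43 members, against 12.8% of all genes tested, and was lower by as much in 0, against 7.87% of all genes. R213A 3 was 2-fold higher in 0 members, against 2.00% of all genes.

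The median difference of the members in the 4-library table was 0.70 on the log2(FPKM + 1) scale, against -0.04 over all genes tested. It was positive in 74 of 78 members, and 17 members reached 2-fold higher, against 5.22% of all genes. No member reached 2-fold lower, against 3.18% of all genes. Within the 5-library table the median was -0.03 over the members and -0.02 over all genes, with 30 of 78 members higher in R213A 2 and 0 of them past 2-fold, against 0.304% of all genes. Without Control 2 that median was -0.012, with 34 of 78 higher. R213A 2 lay between Control 2 and Control 3 in 29 of 78 members, against 49.0% of all genes.

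With both tables in a single limma fit, the median fitted difference was 0.39 over the members and -0.02 over all genes, with 72 of 78 members above 0, against 48.1% of all genes. No member passed an adjusted p of 0.05 (limma, Benjamini-Hochberg), and 0.00% of all genes were called. At an unadjusted p under 0.05 limma found 0 members and 341 of 11193 genes, and limma-voom on recovered reads found 3 members and 214 genes, with 0 genes past the adjusted threshold. Without R213A 2 limma found 34 members and 1123 genes at the unadjusted level and again called 0 genes. The median 95% interval of a member reached 0.61 to either side, wider than the median difference. Without R213A 1 the median was 0.14, without Control 1 it was 0.20, and without R213A 2 it was 0.68.

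**Figure D2:**
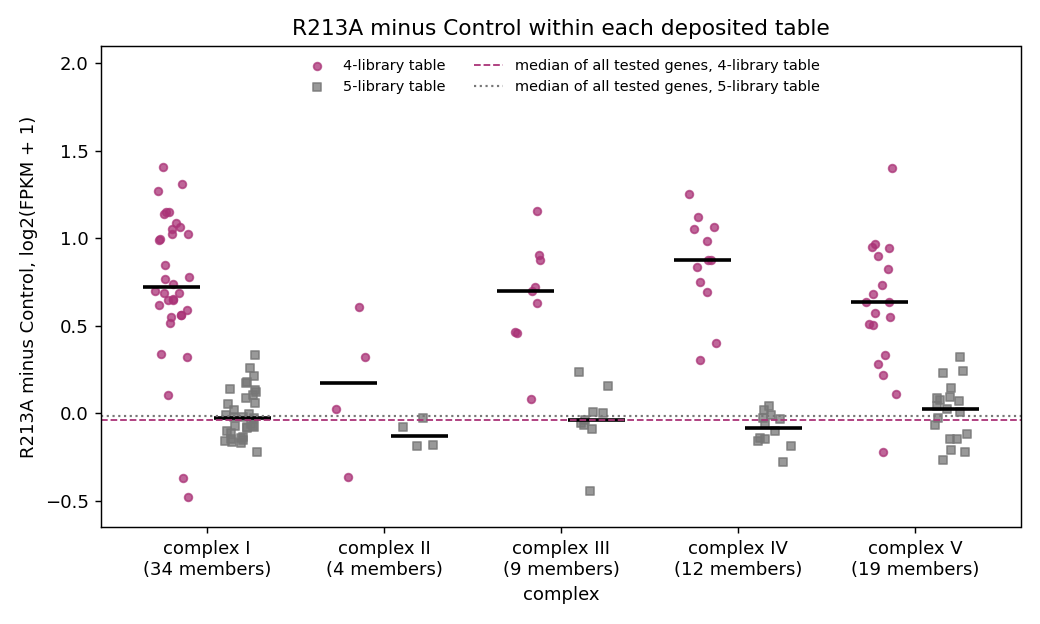
Each point is a tested member, placed by its R213A minus Control difference in log2(FPKM + 1), with circles for the 4-library table and squares for the 5-library table. Black bars are medians by complex, and the circles of complexes I, III, IV and V centre between 0.64 and 0.88 while the squares of all 5 complexes centre between -0.13 and 0.03.

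A test of whether the R213A and Control difference itself differed between the tables called 0 members and 0.00% of all genes in limma, with 6 members and 1389 genes at an unadjusted p under 0.05. That test rests on 3 residual degrees of freedom. With no filter on low values it called 2 of 88 members, ATP5MGL and COX4I2, both of which averaged under 0.02 FPKM. For the 78 members that average 1 FPKM or more, the difference was not shown to differ between the tables.

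Many promoters of nuclear-encoded respiratory genes are known to carry sites for nuclear respiratory factor 1 (NRF1), for ETS-family factors such as nuclear respiratory factor 2, and for YY1. RefSeq windows (GRCh38.p14) of 250 bases before to 50 after a gene's start were at hand for 71 members, 63 of them tested, taking the RefSeq start nearest to the listed gene start, and were searched on both strands for GCGCA, any base and then GCGC (NRF1), for CCGGAAG (ETS) and for AAGATGG (YY1). The nearest start lay up to 56131 bases from the listed one, for COX7A2L, with 13738 for NDUFS3 and 13665 for NDUFV3. Such windows were counted, though they may not be the promoter of the listed gene. The ETS letters end as the YY1 letters begin, so a single run can hold both. Among the members with a window, the 4 of largest and the 2 of smallest R213A minus Control difference in the 4-library table were read out. The 4 of these 6 that hold a match are shown, and the capitals mark the match. They are NDUFB7 (chr19:14572017-14572316, strand minus), COX5B (chr2:97645812-97646111, strand plus), NDUFS1 (chr2:206159395-206159694, strand minus, where the match is on the other strand) and NDUFA5 (chr7:123557769-123558068, strand minus).
NDUFB7: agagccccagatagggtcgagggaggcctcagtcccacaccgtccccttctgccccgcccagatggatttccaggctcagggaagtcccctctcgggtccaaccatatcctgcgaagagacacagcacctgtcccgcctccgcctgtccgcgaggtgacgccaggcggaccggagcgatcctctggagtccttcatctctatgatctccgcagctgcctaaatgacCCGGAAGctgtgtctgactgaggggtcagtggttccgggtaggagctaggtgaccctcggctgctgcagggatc
COX5B: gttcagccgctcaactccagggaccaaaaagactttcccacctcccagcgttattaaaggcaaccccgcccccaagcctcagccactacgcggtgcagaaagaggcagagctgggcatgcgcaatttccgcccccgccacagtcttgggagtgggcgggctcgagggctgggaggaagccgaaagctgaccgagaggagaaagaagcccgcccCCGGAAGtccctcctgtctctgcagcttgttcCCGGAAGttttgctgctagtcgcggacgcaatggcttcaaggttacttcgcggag
NDUFS1: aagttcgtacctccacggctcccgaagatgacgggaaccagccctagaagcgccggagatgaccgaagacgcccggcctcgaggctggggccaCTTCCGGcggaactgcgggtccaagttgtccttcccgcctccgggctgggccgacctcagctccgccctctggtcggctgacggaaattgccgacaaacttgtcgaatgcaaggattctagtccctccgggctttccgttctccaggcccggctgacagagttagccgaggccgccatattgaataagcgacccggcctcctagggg
NDUFA5: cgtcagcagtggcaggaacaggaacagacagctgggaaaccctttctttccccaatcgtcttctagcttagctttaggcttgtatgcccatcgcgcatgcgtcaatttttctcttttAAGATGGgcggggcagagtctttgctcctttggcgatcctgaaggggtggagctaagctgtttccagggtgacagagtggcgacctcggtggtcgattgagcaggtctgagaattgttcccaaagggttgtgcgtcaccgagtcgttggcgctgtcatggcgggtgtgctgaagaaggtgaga

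Both ends of the range thus hold the ETS letters, COX5B in 2 copies and NDUFS1 in 1. The members read out but not shown, NDUFB11 and NDUFS8, were both at the high end, with differences of 1.31 and 1.27. Their windows held 0 matches. Over the tested members the NRF1 letters were in 25.4% of windows, against 13.7% of the windows of all tested genes and 5.78% of all 35116 windows. The ETS letters were in 30.2% of the members' windows, against 21.4% and 10.3%, and the YY1 letters in 25.4%, against 8.27% and 5.84%. In all, 39 of 63 tested members held at least 1 of the 3, or 61.9%, against 37.1% of the windows of all tested genes. The median R213A minus Control difference in the 4-library table was 0.70 with and 0.72 without the NRF1 letters, 0.88 with and 0.70 without the ETS letters, and 0.67 with and 0.74 without the YY1 letters. A match is only a run of letters in the window, and no match says nothing of the factor.

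Complex I, NADH dehydrogenase, takes electrons from NADH through the FMN of NDUFV1 and a line of iron-sulfur clusters to ubiquinone. Its members had a median difference of 0.72 in the 4-library table, with 32 of 34 higher in R213A, and of -0.02 in the 5-library table. NDUFB7 (ENSG00000099795, hg38 chr19:14566078-14572062, minus strand), an accessory subunit of the membrane arm, had the largest fitted difference of all members. It was at 371 and 164 FPKM in R213A 1 and R213A 3, against 161 FPKM in WT 1 and 92.3 FPKM in Control 1. In the other table it was at 42.9 FPKM in R213A 2, at 44.0 and 46.4 FPKM in WT 2 and WT 3, and at 37.3 and 42.6 FPKM in Control 2 and Control 3. Both R213A libraries stood above the other libraries of their table, although R213A 3 exceeded WT 1 only slightly, and R213A 2 lay just above both Control libraries and below both WT libraries. The fitted difference was 0.76 ± 0.80 (95% interval, limma adjusted p = 0.690).

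NDUFB11, another membrane-arm subunit, and NDUFS8, which carries iron-sulfur clusters on the way to ubiquinone, followed the same order. NDUFB11 was at 323 and 150 FPKM in R213A 1 and R213A 3, 130 FPKM in WT 1 and 88.2 FPKM in Control 1. NDUFS8 was at 106 and 51.6 FPKM in R213A 1 and R213A 3, 47.7 FPKM in WT 1 and 30.1 FPKM in Control 1. In the 5-library table NDUFB11 lay between 47.0 and 52.5 FPKM and NDUFS8 between 11.3 and 13.5 FPKM, with R213A 2 inside the range of the Control libraries for NDUFB11 and at 11.3 FPKM, level with Control 3, for NDUFS8.

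NDUFS6, which binds zinc and is needed for a late step of assembly, was at 416 and 157 FPKM in R213A 1 and R213A 3, 137 FPKM in WT 1 and 125 FPKM in Control 1. In the other table it was at 40.4 FPKM in R213A 2, 41.3 and 48.4 FPKM in WT 2 and WT 3, and 29.4 and 38.4 FPKM in Control 2 and Control 3. Here the Control libraries were the lowest in both tables, and the fitted difference was 0.71 ± 0.84 (95% interval, limma adjusted p = 0.690). NDUFS5 and NDUFB10, the 2 most abundant subunit messages of the complex, averaged 212.5 and 115 FPKM and differed by 1.00 and 1.15 in the 4-library table but -0.08 and -0.14 in the other.

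The core subunits of the complex had unlike differences. In the 4-library table the difference was 1.27 for NDUFS8, 1.09 for NDUFV1, 1.05 for NDUFS7, which holds the last cluster before ubiquinone, and 0.65 for NDUFS3. NDUFS1, the largest of them and also a holder of iron-sulfur clusters, was instead at 4.53 and 6.001 FPKM in R213A 1 and R213A 3, 4.38 FPKM in WT 1 and 7.68 FPKM in Control 1. Within the 5-library table it was at 11.2 FPKM in R213A 2, 11.6 and 11.3 FPKM in WT 2 and WT 3, and 10.2 and 10.3 FPKM in Control 2 and Control 3. Control 1 was thus the highest of its table and both Control libraries the lowest of theirs, and NDUFS1 was also lower in the 4-library than in the 5-library table, opposite to most members. Its fitted difference was -0.12 ± 0.48 (95% interval, limma adjusted p = 0.834). NDUFA5, a small accessory subunit, was the other complex I member below 0 in the 4-library table, at 2.37 and 2.78 FPKM in R213A 1 and R213A 3, 1.79 FPKM in WT 1 and 3.62 FPKM in Control 1.

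The complex I entries NDUFV2, NDUFA7 and NDUFA13 were too low to test, although the proteins belong to every complete complex. NDUFV2, the partner of NDUFV1, averaged 0.839 FPKM while its processed pseudogene NDUFV2P1 averaged 4.01 FPKM. NDUFA7 averaged 0.205 FPKM and NDUFA13, named here after its values were seen, 0.911 FPKM. Both overlap other protein-coding genes on the same strand by the gene coordinates deposited with the values, and NDUFA13 shares its place with YJEFN3, which averaged 2.83 FPKM. How shared reads were assigned is not given, so these 3 levels are uncertain.

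**Figure D3:**
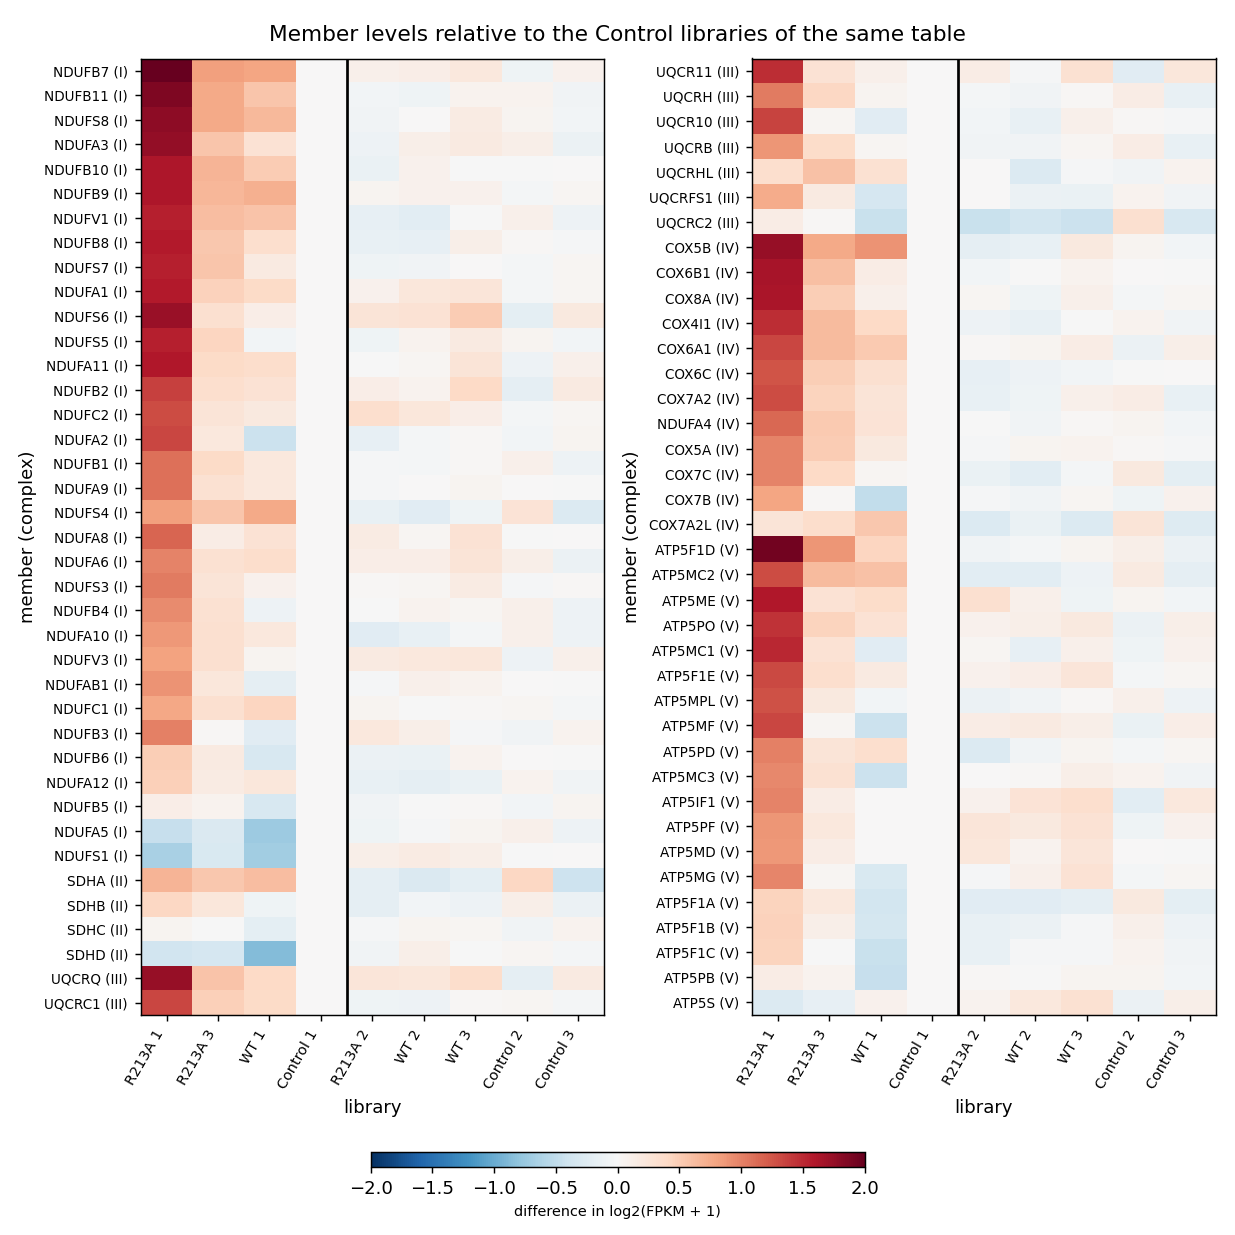
For all tested members but 1, each cell is the member's log2(FPKM + 1) in a library minus the mean of the Control libraries of the same table, with members grouped by complex and ordered by the R213A minus Control difference in the 4-library table. The R213A 1 column is the reddest, from -0.65 to 2.00, and the 5 columns right of the line are pale.

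Complex II, succinate dehydrogenase, belongs to both the citric acid cycle and the respiratory chain, and its 4 genes had differences of both signs. Their median difference was 0.17 in the 4-library table but -0.13 in the other. SDHA, the flavoprotein that oxidises succinate, was at 126 and 114 FPKM in R213A 1 and R213A 3, 120 FPKM in WT 1 and 78.0 FPKM in Control 1. In the other table it was at 38.8 FPKM in R213A 2, 35.9 and 38.3 FPKM in WT 2 and WT 3, and 59.1 and 32.7 FPKM in Control 2 and Control 3. Control 1 was the lowest of its table and Control 2 the highest of its own, and the fitted difference was 0.17 ± 0.63 (95% interval, limma adjusted p = 0.829). Pseudogenes of SDHA averaged up to 5.201 FPKM.

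SDHB, the iron-sulfur subunit, had 53.6 and 47.2 FPKM in R213A 1 and R213A 3, 37.7 FPKM in WT 1 and 39.9 FPKM in Control 1. The membrane anchor SDHC was at 8.001 and 7.58 FPKM in R213A 1 and R213A 3, 6.54 FPKM in WT 1 and 7.64 FPKM in Control 1. SDHD, the other anchor, was at 20.3 and 20.8 FPKM in R213A 1 and R213A 3, 14.2 FPKM in WT 1 and 26.7 FPKM in Control 1. Control 1 was the highest of these 4 libraries for SDHD and WT 1 the lowest, while in the 5-library table SDHD lay between 17.8 and 20.6 FPKM. The fitted difference of SDHD was -0.13 ± 0.49 (95% interval, limma adjusted p = 0.824).

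Complex III, cytochrome bc1, passes electrons from ubiquinol to cytochrome c. All 9 of its tested members were higher in R213A than in Control in the 4-library table, by a median of 0.70, against a median of -0.04 in the 5-library table, where 4 of 9 were higher. UQCRQ (ENSG00000164405, hg38 chr5:132866560-132868031, plus strand), a small subunit beside cytochrome b, had the smallest unadjusted p of all members. It was at 262 and 117 FPKM in R213A 1 and R213A 3, 102 FPKM in WT 1 and 77.8 FPKM in Control 1, and at 46.2 FPKM in R213A 2, 46.0 and 50.2 FPKM in WT 2 and WT 3, and 34.3 and 44.5 FPKM in Control 2 and Control 3. R213A lay above Control in both tables, with a fitted difference of 0.74 ± 0.75 (95% interval, limma adjusted p = 0.690).

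UQCRC1, a core protein, had a difference of 0.91 in the 4-library table but -0.09 in the other. UQCRC2, the other core protein, was at 33.9 and 31.0 FPKM in R213A 1 and R213A 3, 22.2 FPKM in WT 1 and 30.6 FPKM in Control 1. In the 5-library table it was at 14.4 FPKM in R213A 2, 15.2 and 14.5 FPKM in WT 2 and WT 3, and 25.1 and 15.7 FPKM in Control 2 and Control 3. WT 1 was the lowest of its table and Control 2 stood apart in the other. UQCRFS1, the Rieske iron-sulfur protein, differed by 0.46 and 0.00 in the 2 tables. UQCRH, an acidic hinge protein, averaged 116 FPKM and its intronless copy UQCRHL 1.63 FPKM, a level that may include reads of UQCRH.

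Complex IV, cytochrome c oxidase, had the largest median difference of any complex in the 4-library table, 0.88, with all 12 tested members higher in R213A. Within the 5-library table the median was -0.08, with 2 of 12 higher. COX8A (ENSG00000176340, hg38 chr11:63974607-63976543, plus strand), the most abundant nuclear subunit message of the complex, was at 977 and 445 FPKM in R213A 1 and R213A 3, 338 FPKM in WT 1 and 315 FPKM in Control 1. In the other table it was at 141 FPKM in R213A 2, 129 and 147 FPKM in WT 2 and WT 3, and 133 and 141 FPKM in Control 2 and Control 3. R213A 1 was far above Control 1 while R213A 2 lay inside the range of the WT libraries and close to Control 3, and the fitted difference was 0.60 ± 0.78 (95% interval, limma adjusted p = 0.690).

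COX5B, which binds zinc on the matrix side, was at 173 and 86.6 FPKM in R213A 1 and R213A 3, 94.9 FPKM in WT 1 and 50.7 FPKM in Control 1, with 25.7 to 34.0 FPKM in the 5-library table. WT 1 lay between the R213A libraries. COX4I1, the regulatory subunit that binds ATP, was at 197 and 109 FPKM in R213A 1 and R213A 3, 92.1 FPKM in WT 1 and 69.9 FPKM in Control 1, with 38.7 to 45.6 FPKM in the 5-library table. COX6B1, COX6A1 and COX5A differed by 1.12, 0.98 and 0.75 in the 4-library table but -0.06, 0.02 and -0.02 in the other. Pseudogenes of COX6A1 averaged up to 14.7 FPKM, against 45.4 FPKM for COX6A1 itself. COX7A2L, which joins complexes III and IV into supercomplexes, had the smallest difference of the 12, at 0.30 and -0.28.

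The isoforms that mark muscle, testis or low oxygen were close to absent, and the ubiquitous isoforms carried the signal in all 9 libraries. COX4I2, the isoform known from lung and low oxygen, had 1 read each in R213A 2 and Control 1 and 0 in the others, where COX4I1 had 38.7 to 197 FPKM. The muscle isoform COX6A2 and the testis isoform COX7B2 had 0 reads in all 9 libraries, each compatible with up to 3 reads per library by counting error. The muscle isoform COX7A1 reached 0.540 FPKM in R213A 3 at most, against 36.1 to 156 FPKM for COX7A2. COX6B2 reached 0.128 FPKM at most, also in R213A 3. COX8C had 7 reads in R213A 1 and 1 in WT 1, and NDUFA4L2, known to be induced by low oxygen, had at most 35 reads, in WT 1.

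**Figure D4:**
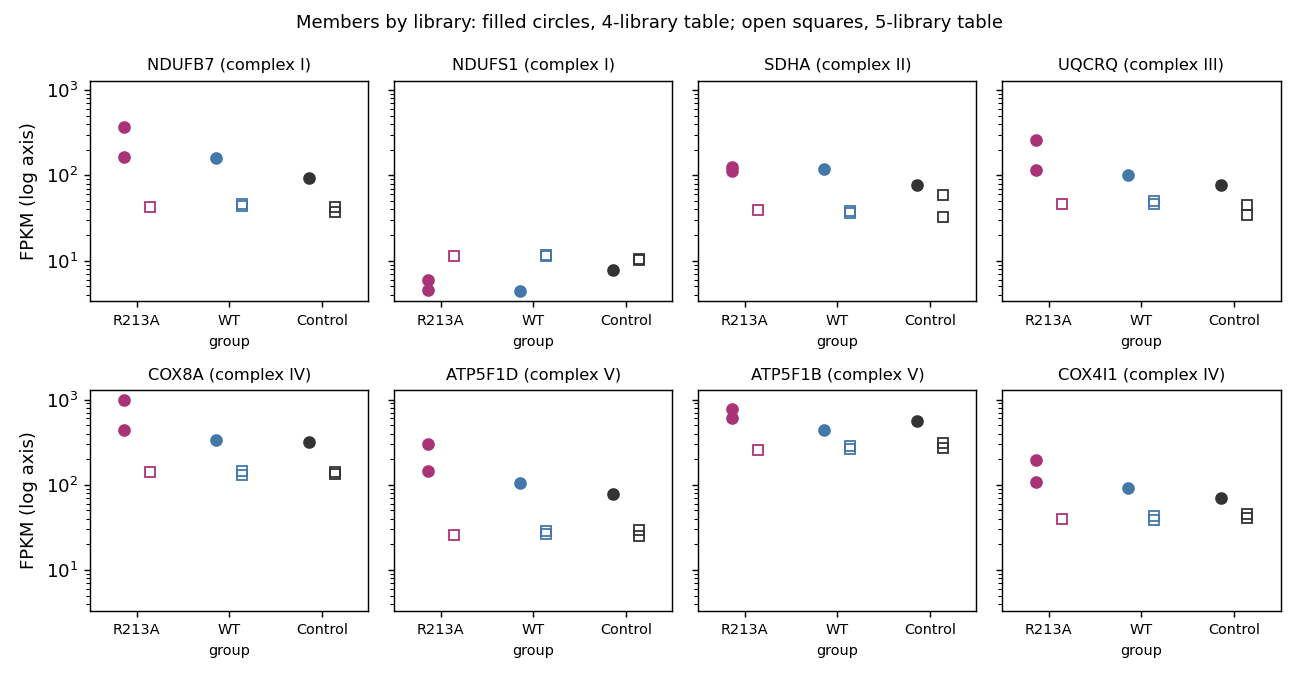
Points give the FPKM of 8 members in each library on a log axis, by group, with filled circles for the 4-library table and open squares for the 5-library table. For NDUFB7, UQCRQ, COX8A, COX4I1 and ATP5F1D both R213A circles lie above the Control circle, and for NDUFS1 both lie below it.

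The ATP synthase genes of complex V had a median difference of 0.64 in the 4-library table, with 18 of 19 higher in R213A, and of 0.03 in the 5-library table, with 11 of 19 higher. Within the catalytic part of the enzyme the values were unlike. ATP5F1D (ENSG00000099624, hg38 chr19:1241746-1244826, plus strand), the delta subunit of the central stalk, was at 302 and 145 FPKM in R213A 1 and R213A 3, 106 FPKM in WT 1 and 78.6 FPKM in Control 1. In the other table it was at 26.1 FPKM in R213A 2, 26.6 and 28.5 FPKM in WT 2 and WT 3, and 29.6 and 25.2 FPKM in Control 2 and Control 3. Both R213A libraries were above the others of their table, and R213A 2 was between the Control libraries of the other, with a fitted difference of 0.70 ± 0.81 (95% interval, limma adjusted p = 0.690).

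ATP5F1B, the catalytic beta subunit, had 780 and 613 FPKM in R213A 1 and R213A 3, 443 FPKM in WT 1 and 568 FPKM in Control 1. In reads, R213A 1 and Control 1 had 24583 and 24723, so the gap between these libraries in FPKM came from the division by each library's scaled total. In the 5-library table ATP5F1B lay at 259 FPKM in R213A 2, 264 and 283 FPKM in WT 2 and WT 3, and 307 and 268 FPKM in Control 2 and Control 3. The fitted difference was 0.13 ± 0.57 (95% interval, limma adjusted p = 0.859). The alpha subunit ATP5F1A and the gamma subunit ATP5F1C, the rotor that turns inside the head, differed by 0.33 and 0.22 in the 4-library table but -0.22 and -0.14 in the other.

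ATP5MC1, ATP5MC2 and ATP5MC3 encode the same mature c subunit of the proton-driven ring and differ in their import sequences. ATP5MC1 was at 131 and 55.9 FPKM in R213A 1 and R213A 3, 38.5 FPKM in WT 1 and 45.4 FPKM in Control 1, but between 7.28 and 8.95 FPKM in the 5-library table. Pseudogenes of ATP5MC1 averaged up to 4.88 FPKM, and how shared reads were assigned is not given. ATP5MC2 was at 172 and 108 FPKM in R213A 1 and R213A 3, 104 FPKM in WT 1 and 69.0 FPKM in Control 1, with 36.7 to 48.4 FPKM in the other table. ATP5MC3 differed by 0.64 and 0.01 in the 2 tables. ATP5IF1, the inhibitor that stops the enzyme from running backwards, differed by 0.57 and 0.08, and ATP5F1E, the epsilon subunit, by 0.83 and 0.09.

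For WT against Control, the subunit genes had median differences closer to 0 than those above in the 4-library table, and 0 members passed the test. The median over members was 0.18 in the 4-library table, against -0.07 over all genes, with 53 of 78 higher, and 0.01 in the 5-library table, with 45 of 78 higher. Without Control 2 the median in the 5-library table was 0.051, with 58 of 78 higher. WT 1 was at least 2-fold above Control 1 in 0 members, against 7.79% of all genes, and 2-fold below in 0 members, against 8.84%. The fitted median was 0.08, with 54 of 78 members above 0, against 46.3% of all genes, and without Control 1 it was -0.09. No member was called and 0.00% of all genes were (limma, smallest adjusted p = 0.757), with 0 members and 503 genes at an unadjusted p under 0.05. Limma-voom also called 0 genes, with 0 members and 425 genes at an unadjusted p under 0.05.

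UQCRC2 had the smallest unadjusted p of the members in this comparison. Its fitted difference was -0.41 ± 0.49 (95% interval, limma adjusted p = 0.757), with differences of -0.44 and -0.40 in the 2 tables. Without Control 2, which was high for this gene, the difference in the 5-library table was -0.075. The 4-library values split the complex V genes, with 10 of 19 members higher in WT 1. The alpha, beta and gamma subunits differed there by -0.36, -0.36 and -0.45, and ATP5F1D by 0.43. The test of a difference between tables called 1.12% of all genes in limma and 0 members, with 3 members and 2314 genes at an unadjusted p under 0.05. With no filter on low values it called 4 of 88 members, SDHD (adjusted p = 0.036) and the near-absent ATP5MGL, COX4I2 and NDUFA4L2.

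The comparison of R213A against WT shares its R213A libraries with the first and its WT libraries with the second, so its values are not separate support for either. In the 4-library table the median over members was 0.58, against 0.03 over all genes, with 74 of 78 higher in R213A. A difference of 2-fold higher was reached by 5 members, against 4.07% of all genes, and 2-fold lower by 0, against 2.44%. Within the 5-library table the median was -0.06, with 15 of 78 higher in R213A 2 and 0 past 2-fold, against 0.179% of all genes. The fitted median was 0.31, with 76 of 78 members above 0, against 51.5% of all genes, and it was 0.08 without R213A 1 and 0.64 without R213A 2. No member was called and 0.00% of all genes were (limma, smallest adjusted p = 0.996), with 0 members and 117 genes at an unadjusted p under 0.05, and limma-voom called 0 genes, with 0 members and 100 genes at that level.

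ATP5MC1 had the largest fitted difference in this comparison, 0.64 ± 0.76 (95% interval, limma adjusted p = 0.996), made of 1.13 in the 4-library table and 0.08 in the other. UQCRFS1 had the smallest unadjusted p, with a fitted difference of 0.47 ± 0.51 (95% interval, limma adjusted p = 0.996). It was at 77.2 and 52.0 FPKM in R213A 1 and R213A 3, against 36.2 FPKM in WT 1, and at 21.1 FPKM in R213A 2, against 19.4 and 19.2 FPKM in WT 2 and WT 3. R213A lay above WT in both tables for this gene, by 0.79 and 0.12. The test of a difference between tables called 0 members and 0.00% of all genes in limma, with 2 members and 812 genes at an unadjusted p under 0.05. Unfiltered, it called COX4I2 and NDUFA4L2.

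Gene length and base composition went with the difference in the 4-library table. The subunit genes are short, with a median length of 2468.5 bases, against 4685 for all genes tested, and their median GC content was 47.5%, against 48.1%. Across the 78 members the R213A minus Control difference in that table had a Spearman correlation of 0.59 with GC content and -0.35 with length, and across all 11188 genes with a GC value 0.57, with -0.41 for length over all 11193. The genes share the same 3 libraries and are not independent. The member of largest difference, NDUFB7, had a GC content of 64.97%, and NDUFA5 had 35.0%. R213A 1 against R213A 3, which carry the same matrix label, gave 0.57 with GC content over the members.

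After each library was corrected for length and GC content across all genes, the median member difference in the 4-library table was 0.58 for R213A against Control, with 76 of 78 higher, and 0.52 for R213A against WT. It was 0.01 for WT against Control. In the 5-library table the corrected medians were -0.03 for R213A against Control, -0.04 for R213A against WT and -0.01 for WT against Control. With both tables in the fit, the corrected R213A minus Control median was 0.29, against 0.39 uncorrected. The corrected fitted difference was 0.38 for NDUFB7, 0.26 for COX8A, 0.39 for ATP5F1D, 0.28 for COX5B and 0.46 for NDUFS6, each over 1.5 times smaller than without the correction, and 0.55 for UQCRQ. Ribosomal protein genes, short and abundant messages listed for comparison, differed by a median of 1.09 in the 4-library table, with 30 of 30 higher in R213A, and by -0.11 in the 5-library table. The 4 epithelial markers that could be tested had medians of 0.69 and -0.14 in the 2 tables, with 4 and 2 of them higher in R213A. The part of either list in the subunit result was not tested.

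**Figure D5:**
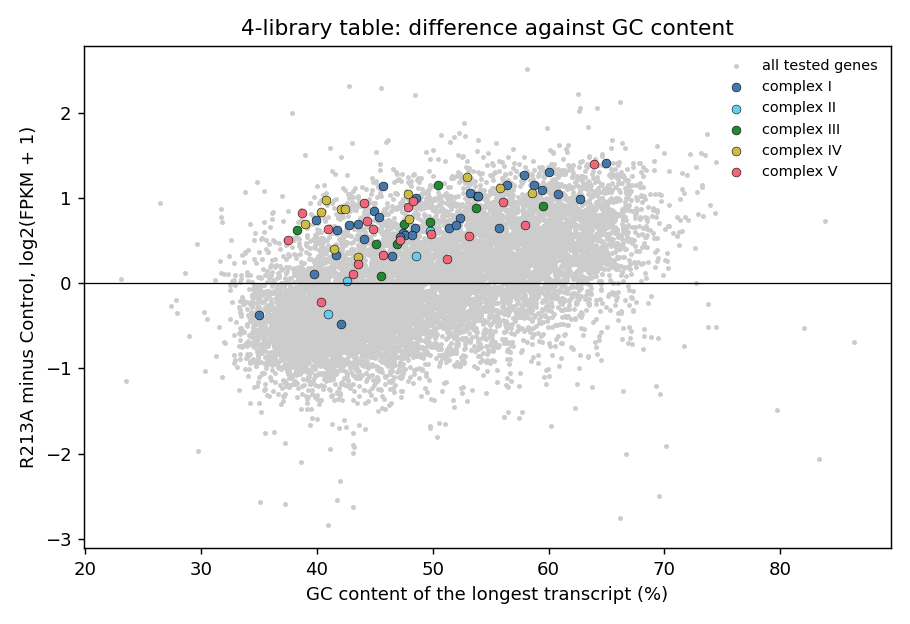
Each grey point is a tested gene and each coloured point a subunit gene, by GC content of its longest transcript in percent and by R213A minus Control in log2(FPKM + 1) in the 4-library table. Higher GC content goes with a higher difference for all genes, with a Spearman correlation of 0.57, and the members lie mostly above the grey cloud's middle at a like GC content, with 76 of 78 above 0 after the correction.

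Other genes of the pathway had smaller median differences in the 4-library table. Of 48 assembly factors 46 were tested, with a median difference of 0.36 for R213A against Control in the 4-library table, where 35 were higher, and of 0.01 in the 5-library table. SURF1, which helps to build complex IV, was at 23.7 and 15.4 FPKM in R213A 1 and R213A 3, 23.1 FPKM in WT 1 and 6.84 FPKM in Control 1. NDUFAF8, a complex I assembly factor, differed by 1.13 and 0.17 in the 2 tables. The 18 genes listed as electron carriers had medians of 0.12 and -0.01. The list includes the PDSS and COQ genes, which serve the synthesis of ubiquinone and are not carriers themselves. It also holds CYC1, cytochrome c1, a subunit of complex III that the naming rule misses. CYC1 differed by 0.77 and -0.17. The 17 citric acid cycle enzymes had medians of -0.10 and -0.13. In all these lists limma called 0 genes in each of the 3 comparisons, where it also called 0.00% of all genes.

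For R213A against Control, the partner subunits encoded by mitochondrial DNA had a median of the other sign in the 4-library table. The median difference was -0.38 in the 4-library table, with 3 of 13 higher in R213A, and 0.11 in the 5-library table, with 7 of 13 higher. Without Control 2 the 5-library median was -0.30. WT 1 was lower still against Control 1, with a median of -0.80 and 0 of 13 higher. R213A minus WT in the 4-library table had a median of 0.41, with 11 of 13 higher, the same sign as for the nuclear-encoded members. Control 2 minus Control 3, which share a matrix label, had a median of -0.90, with 0 of 13 higher. MT-ND4L, a membrane subunit of complex I, was at 190 and 291 FPKM in R213A 1 and R213A 3, 244 FPKM in WT 1 and 881 FPKM in Control 1, against 1072 to 1273 FPKM in the 5-library table. MT-CO2, which receives electrons from cytochrome c, had 6544 and 3929 FPKM in R213A 1 and R213A 3, 2753 FPKM in WT 1 and 3948 FPKM in Control 1. Overlapping transcription units and read assignment limit the levels of single mitochondrial genes.

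Of 14 regulators of mitochondrial gene expression 12 were tested, with a median difference of -0.35 in the 4-library table but -0.15 in the other. GABPA, the ETS-family subunit of nuclear respiratory factor 2 and so a binder of the ETS letters searched for in the promoters, was at 2.12 and 2.46 FPKM in R213A 1 and R213A 3, 2.62 FPKM in WT 1 and 5.27 FPKM in Control 1. In the other table it was at 8.35 FPKM in R213A 2, 8.47 and 8.31 FPKM in WT 2 and WT 3, and 9.76 and 9.11 FPKM in Control 2 and Control 3. Control was the highest group in both tables, with a fitted difference of -0.52 ± 0.20 (SE, limma adjusted p = 0.690). HIF1A differed by -1.16 and -0.14, TFAM by -0.83 and 0.03, and YY1 by -0.63 and -0.16. NRF1, whose letters were also searched for, differed by 0.07 and -0.18. POLRMT differed by 0.81 and -0.20, and ESRRA by 0.41 and 0.13. Of the 12 regulators tested, 4 were higher in R213A than in Control in the 4-library table. GC content was 36.4% for HIF1A and 66.3% for POLRMT, and its part in the differences of the regulators was not tested.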

How the data were processed

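RNA of PaTu 8988t cells was extracted with TRIzol and about 500 ng of total RNA per sample went into Illumina TruSeq stranded mRNA libraries, per the labels' protocols. The submitters' processing notes name the build hg38 and bcl2fastq; no aligner, counting program or annotation release is given in the sources used here. The authors deposited FPKM per gene in 2 tables of 58735 genes, which may have been scaled separately. FPKM times gene length came out as whole reads for 100% of values (tolerance 0.01 reads), with 15951927 to 18312806 reads per library. The authors' scaling differed from these totals by a factor of 0.850 to 1.09.

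The 11193 genes averaging 1 FPKM or more were compared on log2(FPKM + 1), a scale that understates changes of low genes, with limma 3.58.1 in R 4.3.3, using a mean-variance trend and terms for group and table. Residual degrees of freedom were 5. Benjamini-Hochberg adjustment ran over all genes, with a threshold of 0.05. Intervals are 95%. The procedure was also run on simulated data, at the measured spread and at a smaller one. The recovery check was set at the smaller spread, and the counts called at the measured spread are not reported here. That check does not show how often a true difference would be called at the measured spread. GC content came from the longest GENCODE v29 transcript of each gene, available for all 91 members.

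The members, lists and tests were chosen with earlier results of these data known. Genes named were the 2 highest and 2 lowest means per complex, the 5 largest differences each way and 5 smallest p per comparison, fixed isoforms and core subunits, and the 3 smallest p per other list. Alternatives changed pseudocount, filter, scaling, table term, replicate block, libraries, length and GC correction, the spread model, and the test (limma-voom on recovered reads). Figures used matplotlib in Python. Values of 1 tested member are not reported here, though it is in all counts and medians. Same-numbered WT and Control libraries lie in the same table, and their deviations from group means correlated at 0.60, 0.33 and 0.57 for numbers 1, 2 and 3. The labels give no such pairing. The table was not removed from these deviations, and every correlation was positive within a table and negative across tables. The correlations therefore cannot show which replicates belong together. WT 2 correlated more with Control 3, at 0.55.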

Additional observations from a re-analysis of the deposited data

How the results depend on the processing

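In all 3 comparisons limma's test of the group difference called 0 members under each alternative run. At an unadjusted p under 0.05, R213A against Control had 34 members without R213A 2, 11 in the 4-library table alone and 10 with the replicate number as a block, against 0. The count of all genes called was 1 without a filter on low values for R213A against Control and for WT against Control. It was 184 for R213A against Control, 775 for WT against Control and 327 for R213A against WT in the 4-library table alone, an alternative chosen after seeing the data. There 1 residual degree of freedom comes from the 2 R213A libraries, and the lone WT and Control libraries are assumed to vary like them. It was 16 and 14 for the first 2 comparisons in the 5-library table without Control 2, an alternative chosen after seeing the data that leaves 1 Control library there. The median member difference for R213A against Control was 0.71 without the table term, 0.70 in the 4-library table alone, -0.029 in the 5-library table alone and -0.012 there without Control 2. For R213A against WT it was 0.63, 0.58, -0.060 and -0.060. Leaving out each library in turn gave 0.14 to 0.68 for R213A against Control, 0.083 to 0.64 for R213A against WT and -0.09 to 0.15 for WT against Control. Quantile scaling gave 0.23, 0.13 and 0.07. The cause of these shifts was not tested beyond which libraries enter.

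The test of a difference between tables called 1171 genes for R213A against Control, 1655 for WT against Control and 1262 for R213A against WT without a filter, where many genes near 0 have no variance, with 2, 4 and 2 of 88 members called, and 297 for WT against Control with quantile scaling, against 125. For 14 fitted differences of single members, 331 of 350 alternatives kept their direction and 0 passed the threshold, which few could with so few degrees of freedom. The other 19 reversed. For R213A against Control in the 5-library table alone the values were -0.069 for NDUFS8, -0.19 for COX5B, -0.065 for ATP5F1D, -0.15 for ATP5F1B, -0.18 for SDHA and 0.12 for NDUFS1. There without Control 2 they were -0.0087 for NDUFS8, -0.13 for COX5B, -0.046 for ATP5F1B and 0.11 for NDUFS1. Quantile scaling gave -0.14 for ATP5F1B and -0.053 for SDHA. Length correction gave -0.028 for ATP5F1B and 0.045 for NDUFS1, and length with GC correction -0.032 and 0.12. Sizes moved by over 1.5 times when 1 library was left out. For R213A against Control the highest value, without R213A 2, and the lowest, without Control 1, were 1.203 and 0.33 for NDUFB7, 1.26 and 0.28 for ATP5F1D, 1.09 and 0.19 for NDUFS8 and 0.97 and 0.0063 for COX5B. Without R213A 2 and without R213A 1 they were 1.03 and 0.24 for COX8A, 1.11 and 0.30 for NDUFS6 and 1.12 and 0.38 for UQCRQ. For R213A against WT the same libraries gave 1.07 and 0.27 for ATP5MC1, and UQCRFS1 had 0.72 without R213A 2 and 0.27 without WT 1. For WT against Control UQCRC2 had -0.56 without Control 3 and -0.21 without Control 2. Leaving out each library in turn gave -0.012 (without R213A 1) to 0.38 for ATP5F1B, and, with Control 1 left out at the low end for SDHA and the high end for NDUFS1, -0.20 to 0.44 for SDHA and -0.20 to 0.20 for NDUFS1.

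Replicate numbers do not mark shared samples in the labels, and number 3 lies in different tables for R213A and the other groups. Deviations from group means of same-numbered libraries correlated at 0.73, 0.51 and -0.65 between R213A and Control and at 0.77, 0.84 and -0.70 between R213A and WT, for numbers 1, 2 and 3. The table was not removed from these deviations, and the sign followed whether the libraries shared a table. With the replicate number as a block the median member difference was 0.55 for R213A against Control, 0.47 for R213A against WT and 0.08 for WT against Control, and 0 genes were called, so the block changed no call. The depth limits the isoforms near 0 reads, and the 9 libraries limit the rest.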
